A study of Mus musculus with 3 samples.

Results

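The genes described here are 10 activity-induced immediate early genes, taken by symbol from the deposited table: Fos, Fosb, Fosl2, Jun, Junb, Jund, Egr1, Egr3, Arc and Npas4. All 10 were among the 39377 rows of the table, and none was listed at 0 in any library. The study, whose title concerns Slc22a17 and iron in postnatal neurogenesis, is represented by 3 libraries of total RNA, each from whole hippocampus taken on postnatal day 14 from C57BL/6 mice of wild-type genotype. These libraries, numbered 1 to 3, form 1 group with no treatment named. Separate animals are not stated, so a p-value reflects the spread among these libraries alone, and that spread may be technical. Without a stimulated or silenced group, genes were set against each other within a library, in FPKM (fragments scaled by transcript length and by library size).

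Immediate early genes are transcribed within minutes of synaptic activity or growth factor signals, from transcription factors already present in the cell, and most of their transcripts are short-lived. Calcium entry and the ERK pathway act on the factors CREB, SRF with its Elk partners, and MEF2, which sit at the promoters and enhancers of these genes. Fos and Jun proteins pair through leucine zippers to form AP-1, EGR proteins are zinc-finger activators, NPAS4 is a neuron-specific bHLH-PAS factor, and Arc is an effector protein that promotes removal of AMPA receptors from synapses. In the hippocampus these genes are used as marks of recently active neurons.

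The promoters of the low members Fos, Fosb and Npas4, and of Jun and Junb for comparison, are shown because CREB-type sites near the start are a known feature of the group. RefSeq windows on GRCm38.p6, of 300 bases with 50 after the annotated start, matched 7 of the 10 genes by symbol and gene identifier. Egr1, Egr3 and Arc were not matched. The 250 bases before the start are printed 5′ to 3′ on the strand of the gene. Capitals mark the CRE half-site (TGACG, or its reverse complement CGTCA), the TATA motif (TATAA) and, in Jun, the variant AP-1 motif TGACATCA, which was added to the search after the sequence had been seen.

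Fos, chr12:85473640-85473889, plus strand: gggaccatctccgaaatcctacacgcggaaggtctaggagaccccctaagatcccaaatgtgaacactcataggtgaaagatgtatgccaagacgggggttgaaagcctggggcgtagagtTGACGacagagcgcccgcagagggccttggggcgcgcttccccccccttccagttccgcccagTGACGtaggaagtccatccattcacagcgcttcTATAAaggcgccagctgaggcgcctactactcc
Fosb, chr7:19310046-19310295, minus strand: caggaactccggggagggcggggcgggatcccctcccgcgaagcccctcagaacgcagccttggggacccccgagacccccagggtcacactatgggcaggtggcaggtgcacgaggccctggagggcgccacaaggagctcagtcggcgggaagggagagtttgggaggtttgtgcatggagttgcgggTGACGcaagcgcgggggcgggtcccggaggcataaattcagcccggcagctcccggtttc
Npas4, chr19:4989972-4990221, minus strand: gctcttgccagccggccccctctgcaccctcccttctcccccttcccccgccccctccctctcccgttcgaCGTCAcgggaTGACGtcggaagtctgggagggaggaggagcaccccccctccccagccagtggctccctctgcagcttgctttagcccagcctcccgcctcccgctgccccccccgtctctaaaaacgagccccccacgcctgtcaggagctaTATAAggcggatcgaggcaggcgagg
Junb, chr8:84978749-84978998, minus strand: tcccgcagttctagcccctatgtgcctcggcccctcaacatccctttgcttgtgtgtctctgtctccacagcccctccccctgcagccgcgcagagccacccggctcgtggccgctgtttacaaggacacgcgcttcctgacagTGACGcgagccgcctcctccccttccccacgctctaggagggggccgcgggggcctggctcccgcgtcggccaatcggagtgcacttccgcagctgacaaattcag
Jun, chr4:95052223-95052472, minus strand: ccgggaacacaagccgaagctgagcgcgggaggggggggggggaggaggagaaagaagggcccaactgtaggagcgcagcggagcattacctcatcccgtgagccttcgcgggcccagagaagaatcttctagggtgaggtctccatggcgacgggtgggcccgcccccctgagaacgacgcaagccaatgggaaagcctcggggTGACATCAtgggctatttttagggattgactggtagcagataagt

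The CRE half-site TGACG, searched on both strands, was present in 4 of the 7 windows, those of Fos, Fosb, Junb and Npas4, and in 20.8% of all 32851 RefSeq windows of the same length. Fos had matches that began 129 and 66 bases before the start, Fosb 1 match at 60 bases, and Junb 1 match at 106 bases. Npas4 had 1 on each strand, at 179 and 169 bases. The full palindrome TGACGTCA was in 0 of 7 windows and in 1.79% of all windows. TATAA was found in 3 of 7, at 33 bases before the start in Fos, at 26 in Npas4, and directly at the annotated start in Junb, just past the printed bases, against 24.9% of all windows.

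Other motifs were searched in the same way. The AP-1 motif TGANTCA and the CArG box, the site known for SRF, were in 0 of 7 windows, against 7.81% and 1.63% of all windows. The variant TGACATCA lay 45 bases before the start of Jun, and 3.62% of all windows held it. The EGR motif GCGNGGGCG was found in Fosl2 and Fosb (5.55% of all windows), at places where it overlapped the GC box GGGCGG, which was in 5 of 7 windows and 35.7% of all. These matches describe letters in a short window, and sites farther upstream, or those of Egr1, Egr3 and Arc, were not searched. The start used for Jund lies 1210 bases upstream of its GENCODE start, and its window held none of these motifs. The starts used for Npas4 and Fosl2 also differ from the GENCODE starts by more than the length of the window. The GENCODE start of Junb lies 30 bases downstream of the start used. Its matches, TATAA included, therefore lie 30 bases farther upstream of that start. The RefSeq span of Npas4 also holds predicted transcripts and runs farther upstream than the start used, so distances for Npas4 are from that start alone.

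**Figure D1:**
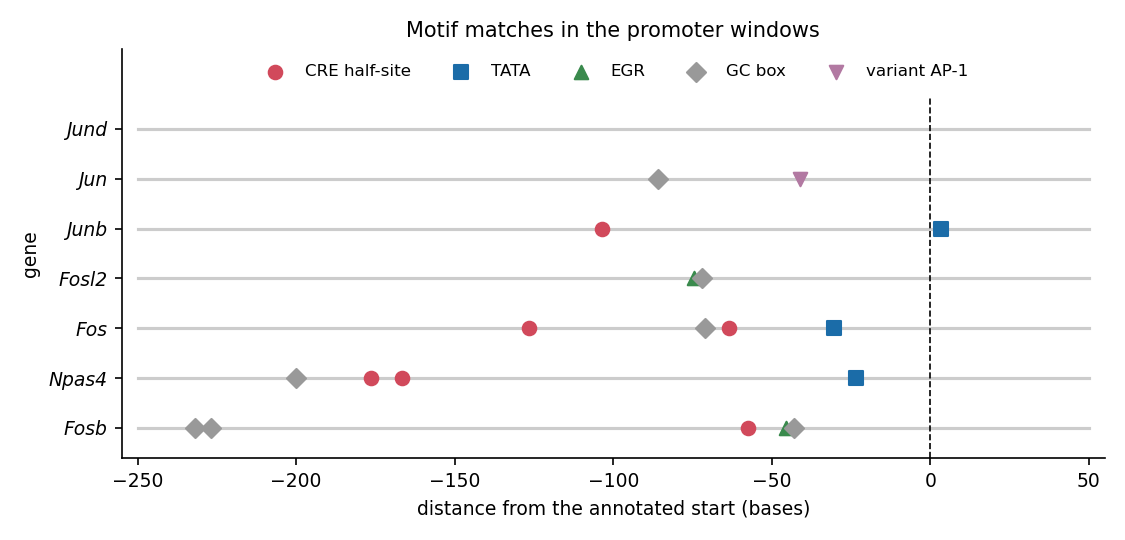
Places of motif matches in the 300-base promoter windows of 7 immediate early genes, by distance in bases from the annotated start (dashed line). Each row is 1 gene and each mark 1 match on either strand. CRE half-sites lie in Fos, Fosb, Junb and Npas4, and the Jund row is empty.

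The gene models shared further features that the choice of genes did not use. In the longest GENCODE M21 coding transcript with a RefSeq match, all 10 had fewer exons than the median gene (1 to 8 exons, against a median of 9 over 12378 genes that averaged 1 FPKM or more). All 10 also spanned less of the genome than the median of 25154 bases, from 1840 bases for Junb to 21369 for Fosl2. Jun, Junb and Jund had a single exon, as did 2.07% of all these genes. The transcripts themselves were not short, with a median of 3122 bases against 3110. Their GC content was above the median of 50.4% in 10 of 10, from 51.3% in Egr3 to 67.1% in Jund. The motif ATTTA, part of the AU-rich elements known to shorten transcript life, occurred in the 3′ untranslated part of 9 of 10 (68.4% of all genes). Fosl2 had 8 copies, Egr3 7 copies, and Fos and Jun 4 each, while Arc had 0. These counts rise with the length of that part. Per kilobase of it, Fos (4.91) and Junb (4.12) had the most, and Fosl2 had 1.72. Of the 10, 8 lay above the median of 1.30 over all these genes, and Fosb (0.466) and Arc lay below it.

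Depth bears on the low members. The spacing of small FPKM values put it at about 3699310, 4104760 and 5984350 fragments in libraries 1, 2 and 3. Fragment numbers below rest on this estimate and on the GENCODE transcript length, and their 95% exact Poisson intervals cover counting error only. Excitatory neuron genes chosen as tissue markers were present throughout (6 of 6, from 9.89 FPKM for Prox1 to 820 for Camk2a), and markers of inhibitory neurons, astrocytes, microglia, oligodendrocytes and endothelium were present too. The summed level of the 4 choroid plexus markers differed by library, at 396, 1082 and 1307 FPKM, nearly all from Ttr, and 1 of them, Kcnj13, was listed at 0 in library 1. In bulk tissue, fewer cells of a type and less RNA per cell cannot be told apart.

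The levels of the 10 genes covered a wide range, from a mean of 0.473 FPKM for Fosb to 68.5 for Jund, a ratio of 145. Without library 1 the mean of Fosb was 0.225 FPKM and the ratio 309, and without library 2 Npas4 (0.565 FPKM) was lower than Fosb (0.635). Positions given with each gene are on GRCm38, from the RefSeq gene table. By mean the order was Jund, Jun, Egr3, Junb, Egr1, Arc, Fosl2, Fos, Npas4 and Fosb. Ranked among 19046 genes not at 0 throughout, they ran from percentile 22.3 (Fosb) to percentile 92.2 (Jund). The filter for testing, a mean of 1 FPKM or more, kept 8 of the 10 and left out Fosb and Npas4. Single pairs were not tested by flipping signs, because the smallest exact p for 3 libraries is 0.25.

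**Figure D2:**
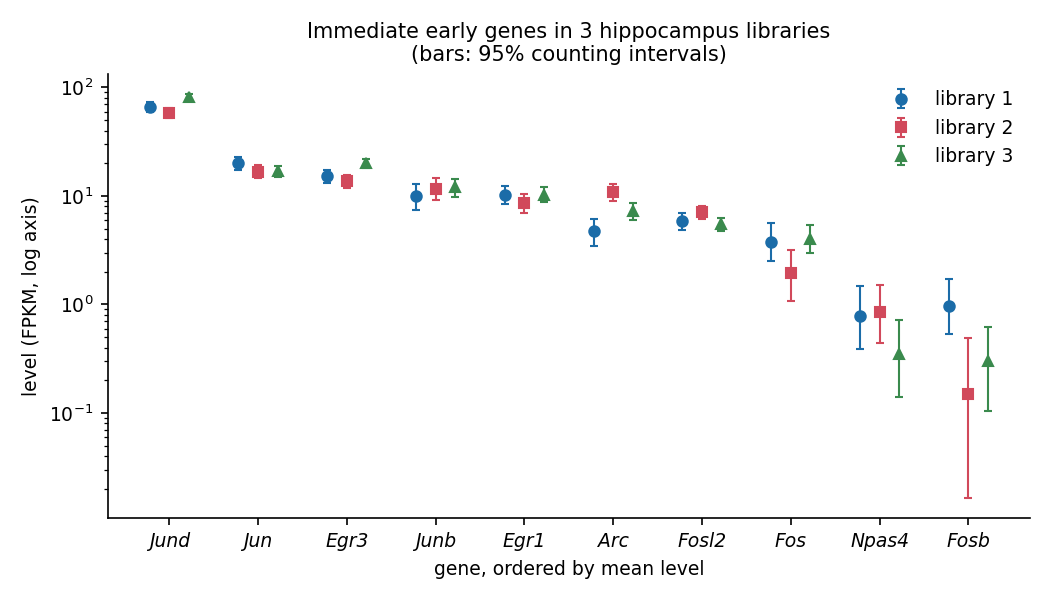
Level of each immediate early gene in FPKM (log axis) in the 3 libraries, ordered by mean. Bars are 95% counting intervals from the estimated fragments. Jund stands above every other gene, and the intervals of Fosb and Npas4 are wide.

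Neighbours in this order were often not separated by the libraries. Jun and Egr3 overlapped in range, with a difference of 0.14 ± 0.32 (SD, n = 3) on the log2(FPKM + 1) scale. The same held for Junb and Egr1 (0.18 ± 0.23), Egr1 and Arc (0.38 ± 0.64), Arc and Fosl2 (0.21 ± 0.42), and Npas4 and Fosb (0.20 ± 0.43), each in the stated order in 2 of 3 libraries. Ranges did not overlap between Jund and Jun (1.87 ± 0.28), Egr3 and Junb (0.49 ± 0.25), Fosl2 and Fos (0.78 ± 0.59) or Fos and Npas4 (1.33 ± 0.61), where the order was the same in 3 of 3 libraries. In all, 5 of the 9 steps had overlapping ranges.

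Of the Jun family, the basic leucine zipper proteins that can form AP-1 dimers with one another or with Fos proteins, Jund was the most abundant. Jund (gene ID 16478, chromosome 8, 70697739 to 70700616, plus strand) is known for broad and steady expression. Its level was 66.6, 57.8 and 81.2 FPKM in libraries 1, 2 and 3, with a mean of 68.5 ± 11.8. Library 3 was highest and library 2 lowest, and all 3 values lay above every value of the other members. They rested on about 343, 342 and 689 fragments. The counting interval of library 3 (75.2 to 87.5 FPKM) lay above those of libraries 1 (59.7 to 74.0) and 2 (51.8 to 64.2).

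Jun, the founding member and an autoregulated gene (gene ID 16476, chromosome 4, 95049036 to 95052222, minus strand), stood at 19.99, 16.8 and 16.9 FPKM, with a mean of 17.9 ± 1.81. Library 1 was highest, and libraries 2 and 3 were nearly equal, on about 215, 204 and 298 fragments. Junb, which can act as a weaker activator than Jun and restrain it (gene ID 16477, chromosome 8, 84976909 to 84978748, minus strand), stood at 9.89, 11.6 and 12 FPKM, with a mean of 11.2 ± 1.13. Its counting intervals overlapped in all 3 libraries, the lowest reaching 12.8 FPKM in library 1 and the highest starting at 9.88 in library 3. Other GENCODE genes overlapped Jun (Junos), Junb (Prdx2) and Jund (Gm11175), and whether the authors counted by strand is not given, so reads of these neighbours cannot be told apart.

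Jund made up 69.0%, 67.0% and 73.7% of the summed FPKM of the 3 Jun genes, a mean of 69.9% ± 3.43 (SD, n = 3). Jun held 18.5% ± 2.79 and Junb 11.5% ± 1.72. The summed Jun family exceeded the summed Fos family 9.92 ± 1.14 times, with 9.13, 9.39 and 11.2 in the 3 libraries. The length of the Jund model that the authors used is not known. GENCODE gives a transcript of 1668 bases and the RefSeq span is 2878 bases, and FPKM falls as the assumed length rises.

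Of the Fos family, which cannot pair with itself and needs a Jun partner, the most abundant was Fosl2, the gene of FRA-2, a member known to be induced late and to persist. Fosl2 (gene ID 14284, chromosome 5, 32136472 to 32157840, plus strand) stood at 5.82, 7.08 and 5.5 FPKM, with a mean of 6.13 ± 0.835, on about 135, 183 and 207 fragments. Library 2 was highest, and the counting interval of library 2 (6.08 to 8.16 FPKM) overlapped those of the others. Fos, the most widely used mark of neuronal activity (gene ID 14281, chromosome 12, 85473890 to 85477274, plus strand), stood at 3.78, 1.95 and 4.01 FPKM, with a mean of 3.25 ± 1.13. Library 2 held the low value, on about 15 fragments against 26 and 45, and its counting interval of 1.09 to 3.2 FPKM reached into those of libraries 1 (2.5 to 5.62) and 3 (2.95 to 5.42).

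Fosb, whose truncated splice form accumulates with repeated activity (gene ID 14282, chromosome 7, 19302696 to 19310118, minus strand), was the lowest of the 10. It stood at 0.97, 0.15 and 0.3 FPKM, on about 13, 2 and 6 fragments. Library 1 was high, and its counting interval of 0.534 to 1.71 FPKM lay above that of library 2 (0.0166 to 0.495) and overlapped that of library 3 (0.104 to 0.618). The level in library 2 was under that of 3 fragments, 0.205 FPKM. The table gives 1 value per gene, so the splice forms were not told apart. The remaining relative, Fosl1, was listed at 0 in all 3 libraries.

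Fosl2 held 55.1%, 77.1% and 56.1% of the summed FPKM of the Fos family (mean 62.8% ± 12.5), and Fos 35.8%, 21.2% and 40.9% (mean 32.6% ± 10.2). Fosl2 held the largest share in each library. The summed level of the family was 10.6, 9.18 and 9.81 FPKM.

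**Figure D3:**
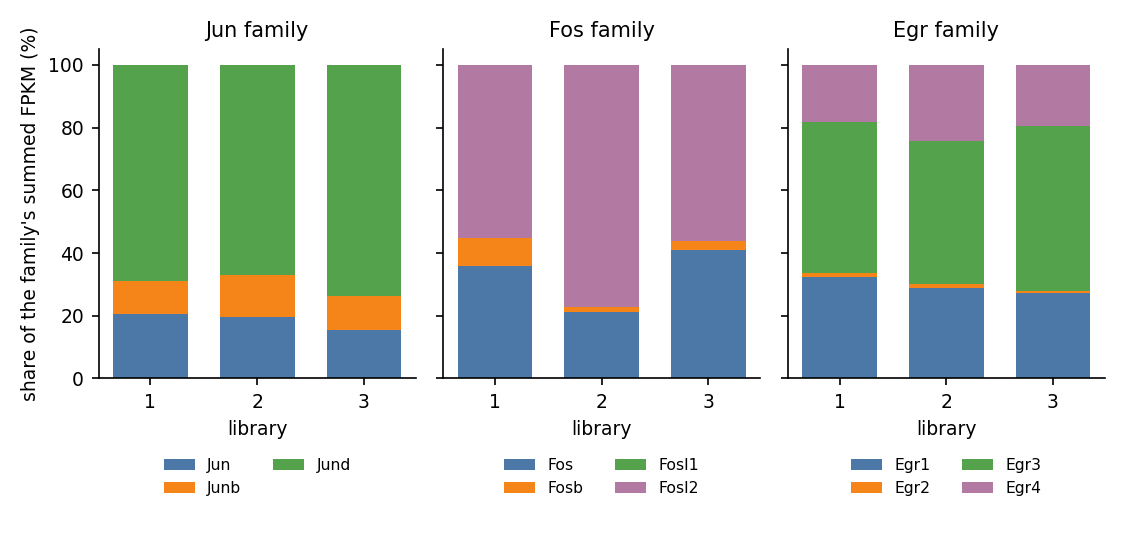
Share of the summed FPKM of the Jun, Fos and Egr families (percent, from 0) taken by each gene, with 1 bar per library. Jund takes 67.0% to 73.7% of the Jun family, and Fosl2 the largest share of the Fos family in each library.

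In the Egr family, zinc-finger factors that bind GC-rich sites, Egr3 was the higher of the members studied. Egr3, known for its part in synaptic plasticity and in muscle spindle development (gene ID 13655, chromosome 14, 70077317 to 70082613, plus strand), stood at 15.2, 13.6 and 19.95 FPKM, with a mean of 16.3 ± 3.29. Library 3 was high, with a counting interval of 18.2 to 21.9 FPKM that lay above those of libraries 1 (13.2 to 17.4) and 2 (11.8 to 15.6). Egr1, also called Zif268 and tied to memory consolidation (gene ID 13653, chromosome 18, 34861207 to 34864956, plus strand), stood at 10.3, 8.58 and 10.3 FPKM, with a mean of 9.72 ± 0.987. Library 2 was lowest, with overlapping counting intervals in all 3. Egr3 was 1.48, 1.59 and 1.94 times Egr1, a mean of 1.67 ± 0.237.

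Of the summed family, Egr3 held 48.8% ± 3.52, Egr1 29.5% ± 2.60 and Egr4 20.7% ± 3.07, while Egr2, known from hindbrain and Schwann cells and inducible in neurons, held 1.01% ± 0.42. Egr4 stood at 5.83, 7.17 and 7.36 FPKM, and Egr2 at 0.44, 0.32 and 0.21. The transcript length assumed for each gene enters these shares.

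Arc and Npas4 are the members that are largely confined to neurons. Arc (gene ID 11838, chromosome 15, 74669081 to 74672570, minus strand) stood at 4.71, 10.8 and 7.26 FPKM, with a mean of 7.59 ± 3.05, on about 48, 125 and 122 fragments. Library 2 stood above the others by more than counting error: its interval began at 8.96 FPKM, and those of libraries 1 and 3 ended at 6.19 and 8.68. Npas4 (gene ID 225872, chromosome 19, 4984353 to 5003439, minus strand), which responds to calcium entry rather than growth factors, stood at 0.78, 0.85 and 0.35 FPKM, on about 10, 12 and 7 fragments. All 3 intervals of Npas4 overlapped. Such overlap is not a test, so a difference between libraries was neither shown nor excluded at this depth.

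Fos and Arc, often read as equivalent marks of activity, did not keep a fixed ratio. Arc was 1.25, 5.53 and 1.81 times Fos in libraries 1, 2 and 3. Library 2 had the lowest Fos and the highest Arc of the 3. The ratio is a description, since 1 group of libraries holds no contrast. Library 1, where Arc was lowest, also had the lowest value of all 4 choroid plexus markers (sums of 396 FPKM against 1082 and 1307), and their part in the Arc value was not tested.

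Deviations of a library from the mean of each gene did not run in 1 direction. Library 2 was the lowest for 6 of the 10 genes (Fos, Fosb, Jun, Jund, Egr1 and Egr3) and the highest for 3 (Fosl2, Arc and Npas4). Library 3 was the highest for 5 and the lowest for 2, and library 1 the highest for 2 and the lowest for 2. Of the 8 members that passed the filter, library 2 was the lowest for 5 and the highest for 2. Library 3 was the highest for 5 of these 8 and the lowest for 1. Over the 13337 genes that passed the filter, 36.5% were highest in library 1, 32.6% in library 2 and 30.9% in library 3, and 33% were lowest in library 1, 33.2% in library 2 and 33.8% in library 3. Some margins were small: Jun stood at 16.78 FPKM in library 2 and 16.94 in library 3, and Egr1 at 10.31 in library 3 and 10.27 in library 1.

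**Figure D4:**
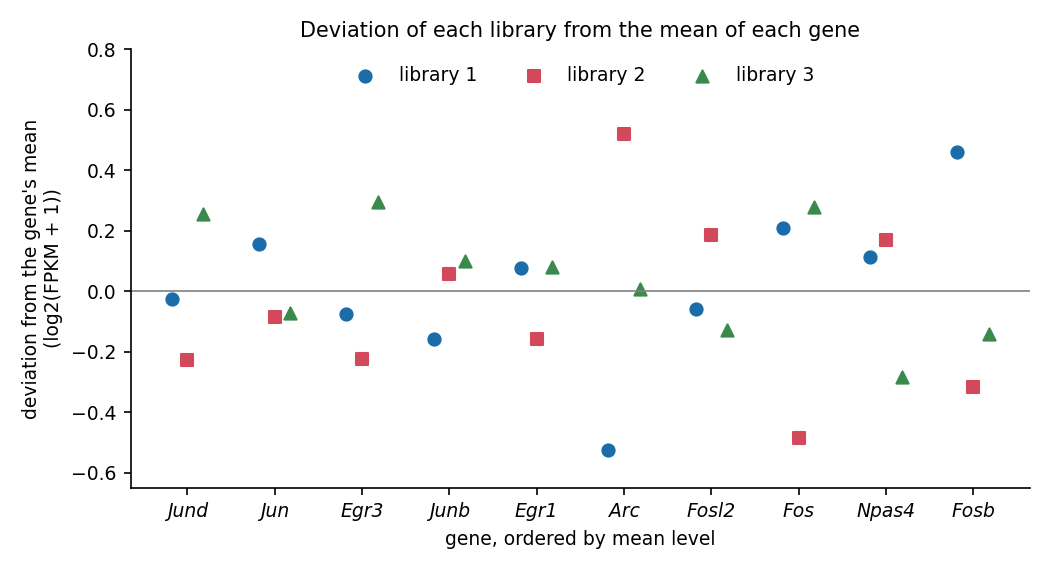
Deviation of each library from the gene's own mean, in log2(FPKM + 1) units, for the 10 immediate early genes in order of mean level. Arc and Fos have the widest spread among those above 1 FPKM, and in library 2 they lie on opposite sides of 0.

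The coefficient of variation over libraries was 92.2% for Fosb, 41.0% for Npas4, 40.2% for Arc and 34.8% for Fos. It was 20.3% for Egr3, 17.2% for Jund and 13.6% for Fosl2, and lowest for Jun (10.1%), Junb (10.1%) and Egr1 (10.2%). The median over all 13337 genes was 13.8%, and over the 6437 genes with a mean of 3 to 20 FPKM it was 14.8%. Arc lay at the 89.8th and Fos at the 86.6th percentile of all these genes, Egr1 at the 34.7th. Counting error alone came to 14.9% to 25.8% for a single value of Fos, and to 8.94% to 14.4% for Arc.

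The genes most like the group in pattern were sought among 9195 other genes averaging 5 FPKM or more, by the root mean square distance of their 3 deviations from the mean deviation of the 8 tested members (-0.05, -0.05 and 0.10 log2 units). The nearest were Rpn1, Asb3, Trappc5, Ndufa8 and Sstr2, at distances of 0.00099 to 0.0044 log2 units. The likeness rests on 3 values per gene, and the mean pattern is small beside the deviations of single members such as Arc (-0.53 to 0.52).

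Tests across the table set each gene against 3 members. The difference in log2(FPKM + 1) was formed in each library, and limma's treat function asked, two-sided, whether it went past 1 log2 unit (2-fold), with Benjamini-Hochberg adjustment over all 13336 other genes. Every difference from a reference shares its 3 values, so the pooled spread rests largely on those values. A fit with the spread of each gene pair alone was added after the data had been seen, and its p-values are given where they bear on a call.

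Against Jund, all 7 other members tested were lower by more than 2-fold, and so were 72.3% of all genes, which leaves little to read from the count. The difference was -4.06 log2 units for Fos (SE 0.244, limma adjusted p = 1.22e-35) and -1.87 for Jun (adjusted p = 0.000266), with the other 5 between -3.28 (Fosl2) and -2.01 (Egr3). All 7 were lower in 3 of 3 libraries. Against a null of no difference all 7 were again called lower, with 84.1% of all genes. With the spread of each pair alone, the adjusted p was 0.0108 for Fos and 0.0286 for Jun, and the largest was 0.0312 for Arc. Jund was 22.5 ± 6.32 times Fos (17.6, 29.6 and 20.2 times). Higher than Jund by more than 2-fold were 0 of the 7 members and 4.13% of all genes.

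Against Egr1, 1 of 7 members was higher by more than 2-fold, Jund, at 2.69 log2 units (limma adjusted p = 2.22e-05), where 26.4% of all genes were higher. Fos was the 1 called lower, at -1.37 log2 units (SE 0.152, limma adjusted p = 0.0485), where 20.2% of all genes were lower. The call did not hold with any 1 library removed (limma adjusted p 0.116, 0.164 and 0.0595) or with the spread of the pair alone (0.17). It was also absent when the same pair was fitted from Fos (adjusted p = 0.233). The other 5 members were not called, at -0.59 for Fosl2, -0.38 for Arc, 0.18 for Junb, 0.67 for Egr3 and 0.82 for Jun. Against a null of no difference, 2 were called lower, Fos and Fosl2 (limma adjusted p = 0.00882 for Fosl2; 40.5% of all genes), and 3 higher, Jund, Jun (0.000696) and Egr3 (0.0025; 44% of all genes).

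Against Fos, 3 of 7 members were higher by more than 2-fold: Jund at 4.06 log2 units, Jun at 2.19 (SE 0.315, limma adjusted p = 0.000233) and Egr3 at 2.05 (limma adjusted p = 0.00121). Of all genes, 46.1% were higher and 0% lower, the count of lower genes by limma being 0 also at an unadjusted p under 0.05. With 1 FPKM as the filter and as the pseudocount, few genes could lie 2-fold below Fos, and 1155 were lower against a null of no difference (8.66% of all genes). Jun was not called with the spread of the pair alone (limma without pooling, adjusted p = 0.0574). Junb (1.55), Egr1 (1.37), Arc (0.99) and Fosl2 (0.78) were not called. With only genes that averaged 5 FPKM or more, Junb was called higher too (limma adjusted p = 0.0469), which made 4 of 7. In that run 6400 of 9202 genes were higher than Fos. All 7 were called higher than Fos against a null of no difference, where 66.2% of all genes were.

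The list of other early-induced transcription factors held 19 genes with means from 0 (Fosl1) to 20.9 FPKM (Crem) and a median of 6.79 FPKM, 16 of them tested, and 16 of 16 were lower than Jund by more than 2-fold (72.3% of all genes). Against Egr1, 2 were lower, Klf4 and Maff, 0 were higher and 14 were not called (20.2% of all genes were lower and 26.4% higher). The orphan receptor genes Nr4a3, Nr4a1 and Nr4a2 stood at 12.5 ± 1.28, 8.84 ± 1.61 and 8.32 ± 0.779 FPKM. Crem, whose short product ICER represses CRE-driven genes, was the highest of the list at 25.8, 21.8 and 15.2 FPKM. The stress-linked Atf3 was listed at 0, 0.29 and 1.19 FPKM. Csrnp1 was low in library 2 as Fos was, at 4.93, 1.87 and 6.95 FPKM. Of the 16, 8 were lowest in library 2 (33.2% of all genes) and 1 was highest there (32.6%).

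The list of other early-induced effectors held 19 genes with a median of 6.07 FPKM, 18 tested, of which 13 were lower than Jund by more than 2-fold (72.3% of all genes). Against Egr1, 3 were higher (26.4% of all genes) and 3 lower (20.2%). The higher were Plk2, a kinase gene of homeostatic synaptic scaling, at 45.4, 44.7 and 54.1 FPKM, Sgk1, a kinase gene that glucocorticoids also induce, at 30.2, 30.7 and 32.1, and Gadd45g at 23.7, 29.5 and 28.5. Homer1, a scaffold gene whose short form Homer1a is the induced one, stood at 24.9 ± 3.92 FPKM, and the table does not separate its forms. The ERK phosphatase gene Dusp6 stood at 24.6 ± 0.854 and Dusp1 at 6.07 ± 1.51. The lower were Sik1, Trib1 and Zfp36, the last a decay factor of AU-rich transcripts, at 1.04 ± 0.0854 FPKM.

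Of 17 upstream kinase and calcineurin genes, 12 were higher than Egr1 by more than 2-fold (26.4% of all genes) and 0 lower (20.2%), led by Camk2a at 820 ± 91.1, Ppp3r1 at 278 ± 20.5 and Ppp3ca at 199 ± 19.9 FPKM. Against Jund, 3 of the 17 were higher (4.13% of all genes), 5 lower (72.3%) and 9 not called. The 17 upstream transcription factors and coactivators had a median of 7.53 FPKM. Of these, 2 were higher than Egr1 (26.4% of all genes), 0 lower (20.2%) and 15 not called. The 2 were Arnt2, a dimer partner of NPAS4, at 57.0 ± 1.53 and Mef2d at 30.0 ± 2.01 FPKM. Crtc1, the CREB coactivator of neurons, stood at 25.5 ± 4.74 FPKM. Partners and repressors of AP-1 and EGR had a median of 6.37 FPKM over 12 genes, of which 9 were tested. Among the 9, 1 was higher than Egr1, Atf4 (26.4% of all genes), 1 was lower (20.2%) and 7 were not called. The 3 highest were Atf4 at 78.3 ± 3.42, Atf2 at 25.2 ± 2.23 and Mafg at 15.2 ± 0.652 FPKM.

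**Figure D5:**
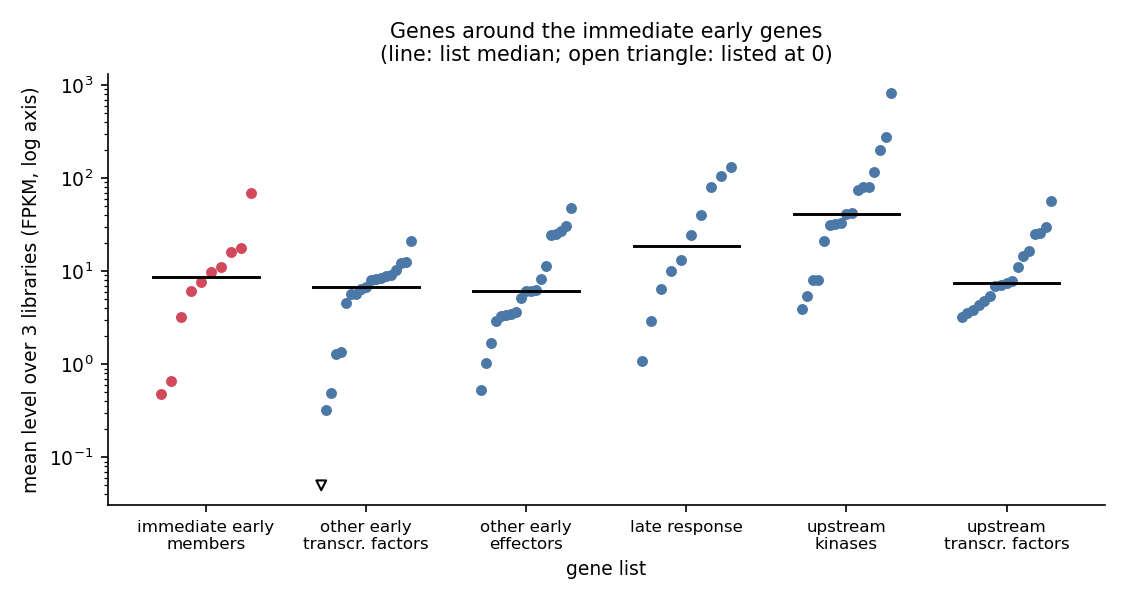
Mean level over 3 libraries in FPKM (log axis) of each gene in 6 lists, with the list median as a line and an open triangle for Fosl1, listed at 0. The members have a median of 8.65 FPKM, and the upstream kinases one of 41.5.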

How the data were processed

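The FPKM table was deposited by the authors, and each of its 3 value columns was assigned to the library whose title carries the same number, per the file headers. Reads were paired, 150 bases long, per the labels' protocols. The submitters' processing notes name Bowtie2 and the build GRCm38 (mm10). For the counting tool, annotation, strand use and shared reads, the sources used here give nothing.

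The members and gene lists were chosen with earlier results of these data known. Deposited FPKM values were taken as they are. Tests used log2(FPKM + 1), on which differences of low genes come out too small, for genes that averaged 1 FPKM or more, with limma 3.58.1 in R 4.3.3 (calls at adjusted p under 0.05). The fit was also run on simulated data, in which most genes lay less than 2-fold from the reference. In the real data most genes were lower than Jund by more than 2-fold, so the 2 settings differ. For depth, genes with 1 GENCODE transcript of at least 800 bases were used: 92.9%, 92.2% and 90.6% of values up to 4 fragments lay less than 0.15 from a whole fragment (30% if evenly spread), with depth and the bases taken off each length chosen on these same values. Named genes were the members, any gene of the lists of other early transcription factors and effectors, the 3 highest of each other list and the 5 nearest in pattern. Prox1, Kcnj13, Tac1, Hspa1a and Hspa1b, and the genes that overlap a member, were named after their values or positions were seen. Symbols of 3 list genes were matched through RefSeq synonyms. Alternatives changed the pseudocount, filter, null, scaling, pooling of the spread and libraries included. Python 3.11.15, pandas 2.3.3 and scipy 1.17.1 were used.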

Additional observations from a re-analysis of the deposited data

How the results depend on the processing

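No paired analysis was possible because the 3 libraries form 1 group, and differences were already formed inside each library. Under every alternative run that tested them, all 7 members were again called lower than Jund. The call was by more than 2-fold except with a null of no difference. So were 5552 of 9201 genes at a mean of at least 5 FPKM and 11220 of 13336 against a null of no difference. With 1 library left out, the mean of Fosb ranged from 0.225 to 0.635 FPKM, the Jund share of its family from 68.0% to 71.4%, the Fos share from 28.5% to 38.3% and the Egr1 share from 28.1% to 30.6%. With no filter on low values, the genes lower than Jund, Egr1 and Fos numbered 15398, 8493 and 3917. With a mean of at least 5 FPKM, 5552 were lower than Jund and 0 than Egr1, since low genes were not tested. Against a null of no difference, 1041 genes were higher than Jund, 5407 lower and 5868 higher than Egr1, and 1155 lower than Fos. A pseudocount of 0.1 gave 140 genes lower than Fos. The spread of each gene pair alone gave 1192 genes lower than Egr1 and 3903 higher than Fos. Of members compared with Egr1, 1 of 7 was called lower in the main test (2689 of 13336 genes). With no filter it was 3 of 9 (8493 of 19045 genes), and at a mean of at least 5 FPKM 0 of 6 (0 of 9201). Against a null of no difference it was 2 of 7 (5407 of 13336). With the spread of the pair alone it was 0 of 7 (1192 of 13336). With replicate 1, 2 or 3 left out it was 0 of 7 each time. Then 2290 of 13340, 2692 of 13283 and 2337 of 13361 genes were lower. Against a null of no difference, 3 of 7 members were called higher than Egr1 (5868 of 13336 genes). Under the same null 7 of 7 were called higher than Fos (8824 of 13336). No difference of a tested member from Jund, Egr1 or Fos changed sign, while the order of Npas4 and Fosb reversed without library 2. Depth limits Fosb and Npas4 most, with 2 to 13 fragments per library.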

Other observations

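Genes of the late response to activity, which are induced after the early transcription factors, had a median of 18.8 FPKM over 10 genes, beside 8.65 for the 10 immediate early genes. Nrn1, the neuritin gene, led them at 142, 137 and 120 FPKM, followed by the granin gene Scg2 at 117, 99.2 and 98.9 and the secreted peptide precursor gene Vgf at 81.2, 69.8 and 91.2. These 3 were higher than Egr1 by more than 2-fold, as was Tac1, named after its values were seen, so that 4 of 10 were called (26.4% of all genes). Of the 10, 7 were lowest in library 3, where 33.8% of all genes were. Library 3 was the highest for 3 of the 10 late response genes and for 5 of the 10 immediate early genes, where 30.9% of all genes were. Among those 5, Egr1 stood at 10.31 FPKM in library 3 and 10.27 in library 1.

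Handling and dissection can also induce early genes, and a list of 10 heat shock and stress genes had a median of 16.0 FPKM. Against Egr1, 3 of the 10 were higher by more than 2-fold (26.4% of all genes), 2 lower (20.2%) and 5 not called. The 2 lower were Hspa1a at 1.90 ± 0.41 and Hspa1b at 1.53 ± 0.319 FPKM. The 3 highest were Hspa5, an endoplasmic reticulum chaperone gene, at 111 ± 6.06 FPKM, Ddit4 at 47.9 ± 6.11 and Hsph1 at 53.6, 33.9 and 53.8. Hsph1 was lowest in library 2, where Fos was also lowest, and Ddit4 was highest there. Their part in the Fos value was not tested.

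Among the genes named as binding partners or regulators of Arc, the postsynaptic scaffold gene Dlg4 stood at 305 ± 22.4 FPKM, the kinase gene Camk2b at 195 ± 22.6 and the AMPA receptor gene Gria1 at 93.8 ± 9.45. Arc was lowest in library 1. Dlg4 stood at 278.9, 315 and 320 FPKM and was lowest there by less, Camk2b was lowest in library 2, and Gria1 was highest in library 1 at 104 FPKM.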
